A study of Mus musculus and Rattus norvegicus with 35 samples.

Results

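Neurod1, Neurod2 and Neurod6 are 3 of the 24601 genes in the mouse table of this series, and Neurod1 and Neurod6 are 2 of the 22409 genes in the rat table; rat Neurod2 is not analysed here. They were taken by symbol and had been chosen from earlier results on these libraries, on their levels in bicuculline-treated cultures, at the hippocampal ages, in the CA1 layers and across tissues. Values in those 4 comparisons are therefore given as a description, with no test. The same holds for P30 hippocampus against whole brain, since libraries of both groups were among those the choice used.

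The series measured RNA of C57BL/6 mice and Sprague Dawley rats in rRNA-depleted libraries, apart from 1 mouse brain library made with oligo(dT) beads. Rat dissociated hippocampal neurons at 28 days in vitro (DIV 28) had received bicuculline at 40 µM for 12 h (2 libraries) or water as the control (2 libraries). Bicuculline blocks GABA-A receptors and so removes fast inhibition from a neuronal network. Mouse hippocampus was sampled at E18, P1, P10 and P30, with 2 libraries each. CA1 neuropil (the layers of dendrites, axons and glia) and CA1 somata (the layer of pyramidal cell bodies) were microdissected from slices of mice and rats at 4 weeks, with 1 library each per species. Synaptosomes (pinched-off synaptic endings) and the homogenate of hippocampus at 4 weeks had 1 mouse library each. Whole tissues (brain, testis, lung, liver and heart) were sampled at 20 weeks, with 2 libraries for each tissue, and at 14 weeks, with 1 rRNA-depleted library for each, and the oligo(dT) brain library, called poly(A) here, was also from 14 weeks. The labels name no genotype other than the strain, and do not say whether replicates were separate animals or cultures. All tissue libraries are bulk samples, in which fewer cells of a type and less RNA per cell cannot be told apart.

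NeuroD proteins are basic helix-loop-helix (bHLH) transcription factors. They bind E-box DNA as partners of the widely expressed E proteins, whereas Id and some Hes proteins oppose proneural bHLH factors by taking up their partners or repressing their targets. NeuroD1 acts in the differentiation of neurons, among them granule neurons of dentate gyrus and cerebellum, and also in the endocrine pancreas. NeuroD2 and NeuroD6 are made by postmitotic glutamatergic neurons of the forebrain, where NeuroD2 acts in synapse maturation and NeuroD6 in axon growth and mitochondrial function.

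The proximal promoters are shown because the E-box is the motif that NeuroD proteins themselves bind. RefSeq (GRCm38.p6) places Neurod1 at chr2:79452637-79456636, Neurod2 at chr11:98325415-98329645 and Neurod6 at chr6:55677818-55681263, all on the minus strand and each with 2 exons in its 1 GENCODE basic transcript. The 250 bases before the annotated start are given 5′ to 3′ on the strand of the gene, with each E-box (CANNTG, a pattern that reads the same on both strands) in capitals. They span chr2:79456637-79456886, chr11:98329646-98329895 and chr6:55681264-55681513.
Neurod1: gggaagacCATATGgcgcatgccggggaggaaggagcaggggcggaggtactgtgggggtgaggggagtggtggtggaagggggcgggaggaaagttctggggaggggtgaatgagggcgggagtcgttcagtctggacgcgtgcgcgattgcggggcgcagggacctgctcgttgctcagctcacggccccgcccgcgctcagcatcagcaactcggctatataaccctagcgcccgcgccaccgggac
Neurod2: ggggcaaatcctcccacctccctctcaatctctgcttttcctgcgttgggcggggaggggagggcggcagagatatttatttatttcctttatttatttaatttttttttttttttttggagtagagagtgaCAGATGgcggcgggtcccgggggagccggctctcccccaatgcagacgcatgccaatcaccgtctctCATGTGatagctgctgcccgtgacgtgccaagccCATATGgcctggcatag
Neurod6: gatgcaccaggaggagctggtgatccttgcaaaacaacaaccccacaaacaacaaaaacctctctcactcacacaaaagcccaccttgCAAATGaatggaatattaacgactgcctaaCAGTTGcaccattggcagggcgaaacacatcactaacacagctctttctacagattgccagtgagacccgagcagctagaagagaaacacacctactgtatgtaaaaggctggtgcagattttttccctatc
The Neurod1 window held 1 E-box, CATATG, starting 242 bases before the start. The Neurod2 window held 3, namely CAGATG at 118, CATGTG at 51 and CATATG at 17 bases before it. The Neurod6 window held 2, CAAATG at 162 and CAGTTG at 132 bases. An E-box was present in 66.2% of the 32851 RefSeq promoter windows of the same length, 2 or more in 31.8% and 3 or more in 12.2%. The form CAGATG, searched on both strands and itself one of the E-boxes, was present in 14.4% of the windows and, of these genes, in that of Neurod2. GC content was 67.6% for Neurod1, 52.8% for Neurod2 and 46.0% for Neurod6. The windows thus differed in composition and in which E-boxes they held, and a match is a string of letters and no evidence of binding.

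Expression was deposited as TPM, a share of all transcripts that is scaled for transcript length, so levels of different genes can be set side by side. Mouse libraries had 11728 to 15605 genes at 1 TPM or more and rat libraries 13007 to 13971. Replicate libraries of a group correlated at 0.968 to 0.986 over genes at 1 TPM or more (log2, across genes, which are not independent). The 14-week rRNA-depleted brain library stood apart from the 20-week brain libraries for Neurod1 and Neurod2. For Neurod6 it was close to them, at 55.9 TPM, against 50.2 and 44.4 TPM. Comparisons of the rRNA-depleted brain group are given with and without that 14-week library. The poly(A) comparison has no other rRNA-depleted library of that age.

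In bicuculline-treated cultures both rat genes were lower. Neurod6 measured 37.7 and 39.1 TPM in the bicuculline libraries, against 222.5 and 193.9 TPM in the control libraries. Neurod1 measured 11.5 and 12.7 TPM in the bicuculline libraries, against 33.5 and 23.7 TPM in the control libraries. The groups did not overlap for either gene. Among all 13341 genes tested, 30.5% had both bicuculline libraries below both control libraries, so that lack of overlap alone is common in this comparison. The control mean was 5.42 times the bicuculline mean for Neurod6 and 2.37 times for Neurod1.

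On the log2(TPM + 1) scale the difference of bicuculline minus control was -2.41 ± 0.13 for Neurod6 and -1.16 ± 0.21 for Neurod1 (SE from limma, n = 2 and 2). Neurod6 had the 6th lowest difference of the 13341 genes, and 0.884% of genes lay below Neurod1. Leaving out 1 library at a time gave -2.50 to -2.31 for Neurod6 and -1.40 to -0.92 for Neurod1. The difference was larger for Neurod6, and the share of Neurod1 in the summed TPM of the pair was 23.3% and 24.6% in bicuculline libraries and 13.1% and 10.9% in control libraries. Neurod4, a NeuroD paralog of retina and early progenitors, was near the detection minimum at 1.02 and 1.18 TPM in bicuculline libraries and 0.480 and 0.356 TPM in control libraries (log2 difference 0.57 ± 0.28, limma adjusted p = 0.346).

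**Figure D1:**
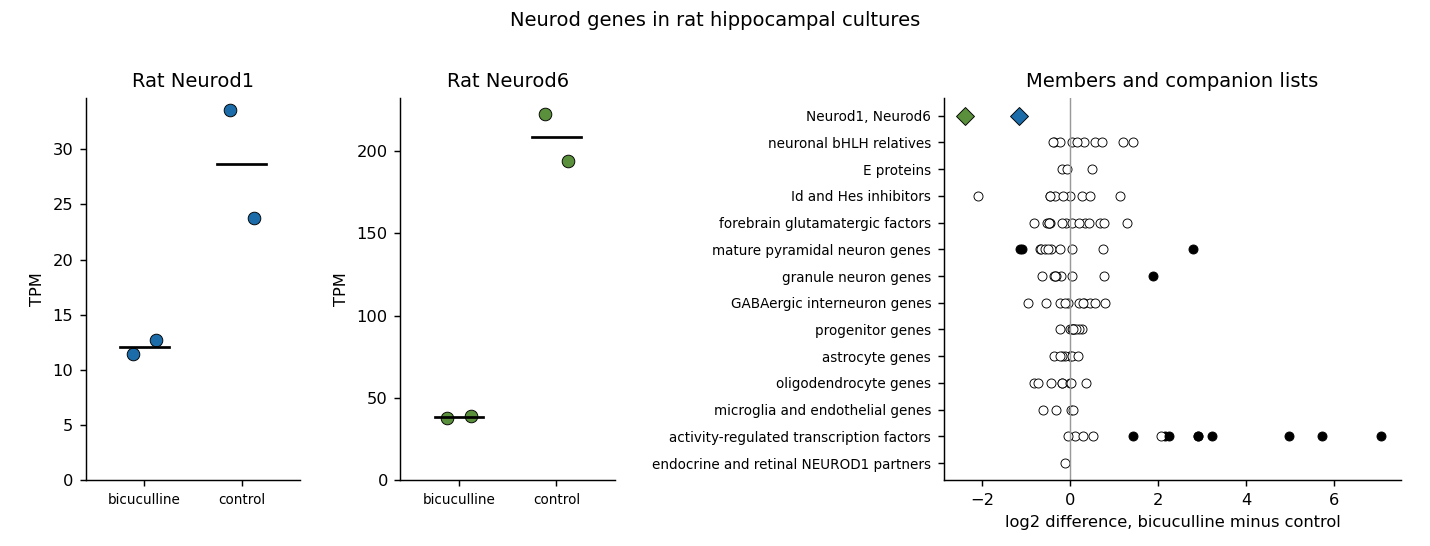
Left and centre, TPM of rat Neurod1 and Neurod6 in each culture library (points) with the group mean (bar). Right, the log2(TPM + 1) difference of bicuculline minus control for both genes (diamonds) and for each tested gene of the companion lists (circles, filled where limma adjusted p is under 0.05); both Neurod genes lie left of 0 at -1.16 and -2.41, while the filled circles at the far right are activity-regulated transcription factors.

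The related lists show how far other genes moved in the same culture libraries. These libraries do not resolve which cells made each RNA. The fit did not pair libraries by replicate number, although culture libraries of equal number deviated together (correlation 0.597). With the numbers taken as pairs, several lists with no call below had calls, and those counts are given with the alternatives at the end. Of 13341 genes tested by limma, 2.06% were higher and 0.51% lower with bicuculline at an adjusted p under 0.05. None of the 10 tested bHLH relatives, the 3 E proteins, the 9 tested Id and Hes inhibitors or the 14 tested forebrain glutamatergic factors passed, while 2, 1, 3 and 5 of them had an unadjusted limma p under 0.05. The most abundant partner, Tcf4, averaged 185 TPM with bicuculline and 202 TPM in controls (log2 difference -0.08, adjusted p = 0.935), and Tcf12 averaged 94.3 and 65.8 TPM (0.50, adjusted p = 0.171). Bhlhe22, a bHLH factor of pyramidal and other projection neurons, averaged 119 TPM with bicuculline and 135 TPM in controls (-0.24, adjusted p = 0.753). The median difference was 0.23 over the bHLH relatives and -0.04 over the glutamatergic factors, against -0.07 over all genes.

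Mature pyramidal neuron genes moved in both directions. Of 11 tested, 1 was higher and 2 were lower, with a list median of -0.51. Arpp21, a cAMP-regulated phosphoprotein and RNA-binding protein, rose to 533 TPM with bicuculline, against 71.7 TPM in controls (log2 difference 2.79 ± 0.40, adjusted p = 0.0359). Itpka, a kinase of dendritic spines, fell to 44.5 TPM, against 99.2 TPM in controls (-1.13 ± 0.16, adjusted p = 0.0337), and Cpne6, a calcium-binding copine, fell to 60.0 TPM with bicuculline, against 131 TPM in controls (-1.11 ± 0.16, adjusted p = 0.0399). The Arpp21 call was lost without bicuculline replicate 1 (adjusted p = 0.0964). With no filter on low values none of the 3 passed (adjusted p = 0.112 for Arpp21, 0.0846 for Itpka and 0.0978 for Cpne6). The calls of Itpka and Cpne6 were also lost without bicuculline replicate 1 (0.233 and 0.272), without bicuculline replicate 2 (0.137 and 0.154) and without control replicate 1 (0.0577 and 0.0615). Without control replicate 2 the list had 1 higher and 4 lower. The summed TPM of the list overlapped between groups, at 2018 to 2862 TPM with bicuculline and 2261 to 3429 TPM in controls.

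Activity-regulated transcription factors, which mark recent neuronal firing, rose: 9 of 14 were higher and none lower, with a list median of 2.2; 5 were higher without bicuculline replicate 1 and 4 without bicuculline replicate 2. Npas4 averaged 421 TPM with bicuculline and 1.97 TPM in controls (log2 difference 7.05 ± 0.44, adjusted p = 0.00674). Fos averaged 870 and 16.4 TPM (5.71 ± 0.29, adjusted p = 0.00452). Fosb averaged 36.6 and 0.202 TPM (4.97 ± 0.22, adjusted p = 0.00321). The 8 tested granule neuron genes had a median difference of -0.27, against -0.07 over all genes. The whole list of 13 genes summed to 555 and 671 TPM with bicuculline and 354 and 364 TPM in controls. Among granule neuron genes 1 of 8 passed: C1ql2, a synaptic organiser secreted by dentate granule cells, averaged 51.9 TPM with bicuculline and 13.4 TPM in controls (1.88 ± 0.16, adjusted p = 0.0106; 0.115 without bicuculline replicate 1 and 0.0757 without replicate 2).

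None of the tested genes of other cell types passed in this unpaired fit: 11 GABAergic interneuron, 9 progenitor, 8 astrocyte, 8 oligodendrocyte and 4 microglia and endothelial genes, and the 1 tested endocrine and retinal partner of NEUROD1. At an unadjusted limma p under 0.05 there were 2 of the GABAergic genes and 0 of the others. Summed TPM of GABAergic genes was 1621 and 2086 with bicuculline and 1392 and 1555 in controls, without overlap. Lack of overlap is common here: 30.5% of all genes were lower without overlap, and the share higher without overlap was not counted. Astrocyte sums overlapped, at 10963 and 11634 TPM with bicuculline and 11290 and 14360 TPM in controls. Microglia and endothelial genes summed to 0.940 and 39.7 TPM with bicuculline and 1.49 and 42.9 TPM in controls, splitting the libraries by replicate number. The part of cell composition in the Neurod values was not tested. The count of 343 genes called in this comparison depends on single libraries, being 33 without bicuculline replicate 1, 42 without bicuculline replicate 2 and 598 without control replicate 2.

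Across hippocampal development the 3 genes were highest before or at birth. Neurod6 measured 450.3 and 439.9 TPM at E18, 411.6 and 449.5 at P1, 292.3 and 275.9 at P10, and 199.0 and 176.3 at P30. It was the most abundant of the family in each of these libraries, and it was lower at each age after P1. Neurod1 measured 90.7 and 70.1 TPM at E18, 77.5 and 64.9 at P1, 30.1 and 30.4 at P10, and 19.0 and 17.9 at P30. It followed the same order with a larger relative difference between E18 and P30. Neurod2 measured 124.6 and 99.6 TPM at E18, 118.5 and 76.0 at P1, 49.4 and 27.8 at P10, and 76.3 and 49.3 at P30. It was lowest at P10, and its P30 and P10 libraries overlapped.

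The steps differed between genes. P1 and E18 libraries overlapped for all 3 genes, with log2 differences of P1 minus E18 of -0.17 ± 0.17 for Neurod1, -0.23 ± 0.31 for Neurod2 and -0.05 ± 0.13 for Neurod6 (SE from limma over the 8 libraries, n = 2 each). Each of these changed sign when 1 library was left out, to 0.016 without E18 replicate 1 for Neurod1, 0.089 without P1 replicate 2 for Neurod2 and 0.014 without P1 replicate 1 for Neurod6. From P1 to P10 no library of the older group reached the younger group for any of the 3. The share of all genes without overlap was not counted for the ages. The differences of P10 minus P1 were -1.20 ± 0.17, -1.33 ± 0.31 and -0.60 ± 0.13 for Neurod1, Neurod2 and Neurod6. Leaving out 1 library at a time kept each negative, and Neurod2 had the widest range, -1.74 to -0.93. Those of P30 minus P10 were -0.68 ± 0.17 for Neurod1 and -0.60 ± 0.13 for Neurod6, without overlap, and 0.71 ± 0.31 for Neurod2, with overlap and 0.31 without P10 replicate 2. Of 15444 genes, 2.91%, 1.89% and 17.9% had a lower difference of P10 minus P1 than Neurod1, Neurod2 and Neurod6. For P30 minus P10, 8.55% lay below Neurod1 and 10.9% below Neurod6.

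**Figure D2:**
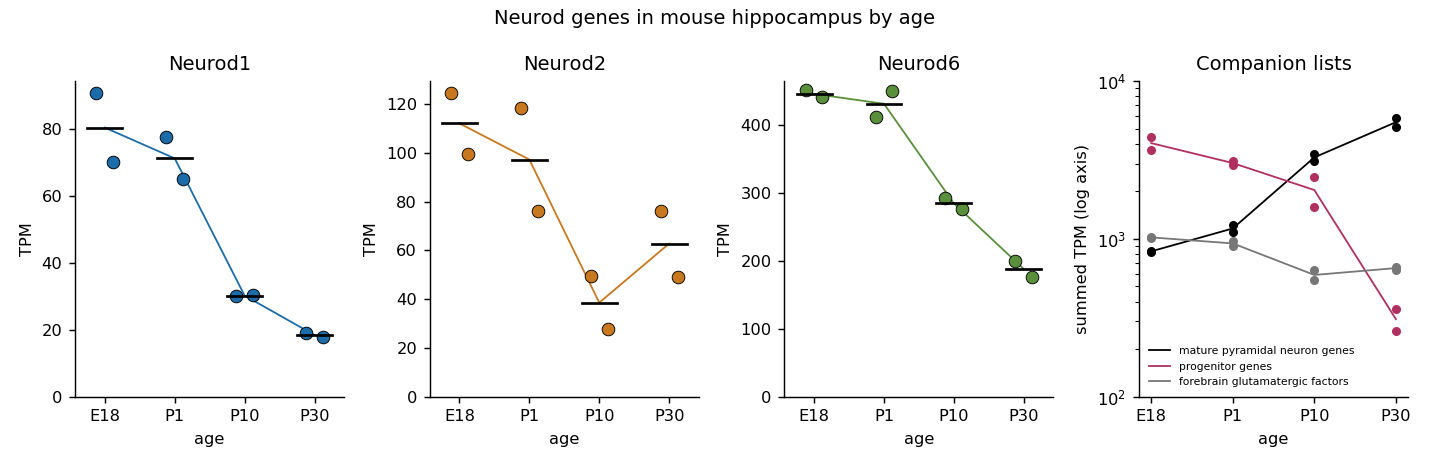
TPM of Neurod1, Neurod2 and Neurod6 in each mouse hippocampus library by age (points; bars and lines give the mean of 2), and on a log axis the summed TPM of 3 companion lists. Neurod1 and Neurod6 are lower at P10 than at P1 and lower again at P30, Neurod2 is lowest at P10, and the mature pyramidal genes are higher at each later age.

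The limma fits on 15444 genes put these steps beside the rest of the transcriptome. For P1 against E18, 1.2% of genes were higher and 0.524% lower. For P10 against P1, 17.2% were higher and 18% lower. For P30 against P10, 17% were higher and 12.5% lower, or 2154 genes higher and 2826 lower after libraries were scaled to equal medians, where the as-deposited counts were 2632 and 1929. That scaling moved the median difference of all genes to -0.06, against 0.06 as deposited, and the differences of Neurod1 and Neurod6 to -0.81 and -0.73. The numbers of genes called rest on single libraries. P1 against E18 called 267 genes and 19 to 153 with any 1 of the 8 libraries left out. P10 against P1 called 5437, and 2794 without P10 replicate 2 or 3565 without P10 replicate 1. P30 against P10 called 4561, and 2219, 2731, 2564 and 2317 without P10 replicate 1, P10 replicate 2, P30 replicate 1 and P30 replicate 2.

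Most tested bHLH relatives and all 3 E proteins were lower at P10 than at P1. Of 10 tested bHLH relatives 7 were lower and 1 was higher (5 and 0 without P1 replicate 1), with a median difference of -1.15 against -0.07 for all genes. Neurog2, the proneural factor upstream of NeuroD genes in cortical progenitors, fell to 2.07 TPM at P10, against 12.9 TPM at P1 (-2.20 ± 0.25, adjusted p = 0.000297). Nhlh2, another neuronal bHLH factor, fell to 4.22 TPM, against 25.1 TPM at P1 (-2.32 ± 0.21, adjusted p = 8.15e-05). All 3 E proteins were lower. Tcf4 fell to 260 TPM, against 508 TPM at P1 (-0.94 ± 0.17, adjusted p = 0.00289), Tcf12 to 32.2 TPM, against 69.6 TPM (-1.09 ± 0.18, adjusted p = 0.00189), and Tcf3 to 11.9 TPM, against 29.1 TPM (-1.25 ± 0.25, adjusted p = 0.00463). These 5 calls remained in every refit without 1 library.

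Of 10 Id and Hes inhibitors, 3 were lower and 1 was higher at P10. Hes6, which promotes neurogenesis, fell to 34.4 TPM, against 102 TPM at P1 (-1.53 ± 0.26, adjusted p = 0.00243), and Id2 fell to 179 TPM, against 307 TPM at P1 (-0.78 ± 0.14, adjusted p = 0.00284), while Hey1, a Notch target, rose to 36.7 TPM, against 21.9 TPM (0.72 ± 0.15, adjusted p = 0.00636). Forebrain glutamatergic factors were lower in 11 of 17 and higher in 1, with a median of -0.90. Eomes, a factor of intermediate progenitors, fell to 2.70 TPM, against 16.0 TPM at P1 (-2.21 ± 0.19, adjusted p = 5.55e-05). Emx2, a patterning factor of hippocampus, fell to 12.3 TPM, against 38.8 TPM at P1 (-1.59 ± 0.21, adjusted p = 0.000607), and Lhx2, another, fell to 39.4 TPM, against 108 TPM at P1 (-1.43 ± 0.22, adjusted p = 0.00128).

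Mature pyramidal neuron genes went the opposite way, with 13 of 15 higher at P10 and none lower (median 2.32). Cpne6 rose to 146 TPM at P10, against 3.20 TPM at P1 (5.14 ± 0.15, adjusted p = 7.37e-07), Spink8, a marker of CA1, rose to 38.8 TPM, against 1.35 TPM (4.11 ± 0.24, adjusted p = 1.76e-05), and Itpka rose to 104 TPM, against 10.8 TPM (3.23 ± 0.33, adjusted p = 0.000173). The summed TPM of this list was 832 to 836 at E18, 1104 to 1226 at P1, 3097 to 3471 at P10 and 5104 to 5870 at P30. Progenitor genes fell in 5 of 9, and their sum was 3682 to 4405 TPM at E18, 2941 to 3107 at P1, 1601 to 2478 at P10 and 259 to 361 at P30. All 8 astrocyte genes and 5 of 8 oligodendrocyte genes were higher at P10 than at P1, with astrocyte sums of 2151 to 2180 TPM at P10 and 804 to 1014 TPM at P1. The part of these other cell types in the Neurod values was not tested.

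Between P10 and P30 Neurod1 and Neurod6 were lower again. None of the 3 E proteins passed the limma test (0 also at an unadjusted p under 0.05), with a list median of 0.08. Of 10 bHLH relatives 1 was lower, with a list median of -0.23. That count is near the share of all 15444 genes, of which 12.5% were lower and 17% higher. Among 17 glutamatergic factors 4 were higher and 2 lower; without any 1 of the 4 P10 and P30 libraries 0 or 1 were higher and 1 or 2 lower. Among 15 mature pyramidal genes 11 were higher and 1 was lower (median 1.04), and 6 and 1 without P30 replicate 1 or without P10 replicate 2. Camk2a, the postsynaptic calcium/calmodulin kinase, rose to 960 TPM at P30, against 169 TPM at P10 (2.49 ± 0.19, adjusted p = 5.82e-05), and Wfs1, an endoplasmic reticulum protein that marks CA1, rose to 54.9 TPM, against 19.5 TPM (1.45 ± 0.20, adjusted p = 0.00112). Progenitor genes fell in 8 of 9, and oligodendrocyte genes rose in 8 of 8, their sum reaching 9417 to 10630 TPM at P30, against 297 to 587 TPM at P10. Of 10 tested granule neuron genes 3 were higher and 2 lower. C1ql2 and Dsp, both of dentate granule cells, rose to 37.1 and 16.2 TPM, against 4.72 and 2.35 TPM at P10 (2.72 ± 0.24 and 2.38 ± 0.21, limma adjusted p = 0.000113 and 0.000105). Cbln1, of the same list, fell to 5.45 TPM, against 22.3 TPM at P10 (-1.85 ± 0.20, limma adjusted p = 0.000277).

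In the CA1 layers Neurod6 was lower in neuropil than in somata and Neurod1 was level. Mouse Neurod6 measured 224 TPM in neuropil and 451 TPM in somata, and rat Neurod6 261 TPM in neuropil and 549 TPM in somata. The somata level was 2.01 times the neuropil level in mouse and 2.10 times in rat. Neurod1 was level between layers, at 5.27 TPM in neuropil and 5.19 TPM in somata of mouse, and at 18.6 TPM in neuropil and 19.0 TPM in somata of rat. Mouse Neurod2 lay between, at 46.9 TPM in neuropil and 58.8 TPM in somata. On the log2(TPM + 1) scale neuropil minus somata was -1.01, 0.018 and -0.32 for mouse Neurod6, Neurod1 and Neurod2, and -1.07 and -0.029 for rat Neurod6 and Neurod1. With 1 library per layer and species there is no replicate check and no test.

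More than 2-fold lower in neuropil were 0.97% of 14948 mouse genes and 1.47% of 14164 rat genes, and Neurod6 was among them in both species. More than 2-fold higher were 8.22% of mouse and 8.35% of rat genes. In rat those were 1182 genes higher and 208 lower, or 873 and 297 after scaling to equal medians. At a pseudocount of 5 TPM mouse Neurod6 came to -0.99, just short of 2-fold. Mature pyramidal genes had list medians of -0.63 in mouse and -0.86 in rat, against 0.00 and 0.09 over all genes, with 3 of 15 and 4 of 12 more than 2-fold lower in neuropil. Itpka measured 391 TPM in neuropil and 662 TPM in somata of mouse, and 247 TPM in neuropil and 530 TPM in somata of rat. Camk2a, whose mRNA is known to be carried into dendrites, measured 928 TPM in mouse neuropil and 615 TPM in mouse somata, the opposite order to Neurod6. None of the 3 E proteins passed 2-fold in either species, and Tcf4 measured 247 TPM in neuropil and 279 TPM in somata of mouse.

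Glial RNA differed between the layers as well. The 8 astrocyte genes summed to 7061 TPM in neuropil and 2909 TPM in somata of mouse and to 11270 TPM in neuropil and 5618 TPM in somata of rat, and 7 and 5 of them were more than 2-fold higher in neuropil. Microglia and endothelial genes summed to 868 TPM in neuropil and 360 TPM in somata of mouse, and 968 and 430 TPM in rat. Of the Id and Hes inhibitors 4 of 10 in mouse and 5 of 10 in rat were more than 2-fold higher in neuropil; Id4, also expressed by astrocytes, measured 158 TPM in neuropil and 46.4 TPM in somata of mouse. The part of this difference in glia in the Neurod values was not tested.

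Mouse CA1 held less Neurod1 than whole P30 hippocampus. CA1 neuropil and somata held 5.27 and 5.19 TPM of Neurod1, and whole P30 hippocampus averaged 18.4 ± 0.77 TPM (SD, n = 2). Prox1, the defining factor of dentate granule cells, measured 5.55 TPM in mouse neuropil and 1.8 TPM in mouse somata and averaged 24.2 TPM in P30 hippocampus. C1ql2 measured 7.46 TPM in neuropil and 1.15 TPM in somata and averaged 37.1 TPM in P30 hippocampus. These granule neuron genes were chosen after their values were seen. Of the 9 genes of that list at 1 TPM or more, 7 were over 2-fold higher in neuropil than in somata, whereas Neurod1 was level between the layers. The whole granule neuron list of 13 genes summed to 149 TPM in CA1 neuropil and 144 TPM in CA1 somata, most of it Calb1, which CA1 pyramidal cells also express (84.5 TPM in neuropil and 124 TPM in somata), and to 210 and 197 TPM in P30 hippocampus. No test joins these libraries, which differ in dissection and, at 4 weeks and P30, in stated age.

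Synaptosomes held less of all 3 genes than the homogenate. Neurod6 measured 43.7 TPM in synaptosomes and 212.5 TPM in homogenate. Neurod1 measured 7.45 TPM in synaptosomes and 24.0 TPM in homogenate, and Neurod2 measured 41.6 TPM in synaptosomes and 89.9 TPM in homogenate. The log2 differences of synaptosome minus homogenate were -2.26, -1.57 and -1.09 for Neurod6, Neurod1 and Neurod2, against a median of -0.29 over all 14854 genes. Of those genes 0.478% lay below Neurod6, 2.75% below Neurod1 and 11.2% below Neurod2. More than 2-fold lower were 14% of genes and more than 2-fold higher 5.83%. After scaling to equal medians (median -0.01) the split of such genes turned to 1478 higher and 1058 lower, against 866 and 2083 as deposited, and Neurod2 came to -0.79, inside 2-fold, while Neurod6 stayed at -1.95.

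The other lists of that pair give the setting. Camk2a measured 1371 TPM in synaptosomes and 408 TPM in homogenate, and Cpne6 94.5 TPM in synaptosomes and 313 TPM in homogenate, so mature pyramidal genes went both ways (2 higher and 5 lower of 15 at 2-fold). Of 3 E proteins none passed 2-fold, and of 7 bHLH relatives 1 was lower. GABAergic genes were more than 2-fold lower in 6 of 12. Astrocyte genes summed to 14381 TPM in synaptosomes and 2885 TPM in homogenate and 7 of 8 were more than 2-fold higher. Their part in the Neurod values was not tested.

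Across tissues the 3 genes were found in brain and were at or near 0 elsewhere. In the 3 rRNA-depleted brain libraries (20 weeks, 20 weeks, 14 weeks) Neurod1 measured 49.2, 54.4 and 27.9 TPM, Neurod2 19.9, 30.4 and 86.4 TPM, and Neurod6 50.2, 44.4 and 55.9 TPM. In the 12 libraries of heart, liver, lung and testis Neurod1 was listed at 0 in 10 and reached 0.157 TPM at most, in 14-week testis. Neurod2 was listed at 0 in 9 of the 12 and reached 0.1 TPM, in heart, and Neurod6 was listed at 0 in 9 and reached 0.162 TPM, in liver. No other tissue overlapped brain for these genes, and the share of all genes without overlap was not counted. The log2(TPM + 1) difference of brain minus other tissues was 5.40 ± 0.15 for Neurod1, 5.24 ± 0.28 for Neurod2 and 5.63 ± 0.10 for Neurod6 (SE from limma, n = 3 and 12). Without the 14-week library it was 5.69 for Neurod1, 4.65 for Neurod2 and 5.55 for Neurod6. Near 0 this size is set by the pseudocount: it was 3.11 to 3.45 at 5 TPM and 8.32 to 8.67 at 0.1 TPM. Of 18966 genes, 2.1% had a higher reported difference than Neurod1, 2.37% than Neurod2 and 1.67% than Neurod6.

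Brain against other tissues called 45.4% of 18966 genes higher and 28% lower by limma, which is 8612 and 5307 genes, or 5476 and 7833 after scaling to equal medians, a scaling that moved the median of all genes to -0.23, against 0.34 as deposited. Of the 6 tested bHLH relatives 5 were higher in brain and 1 was lower; Bhlhe22 averaged 37.6 TPM in brain and 0.280 TPM in the other tissues (log2 difference 4.91 ± 0.16, adjusted p = 5.33e-12). Of the 17 glutamatergic factors 15 were higher and all 15 mature pyramidal genes were higher. E proteins were higher in 2 of 3. All 4 tested endocrine and retinal partners of NEUROD1 were called higher in brain on the log scale, but their sums overlapped, at 15.2 to 27.4 TPM in brain and 0 to 88.2 TPM in the other tissues. Scgn, a calcium-binding protein of endocrine cells, averaged 4.94 TPM in brain and 16.5 TPM in the other tissues (log2(TPM + 1) difference 0.92 ± 0.24, limma adjusted p = 0.00353), so its means and its log difference had opposite directions.

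The brain libraries differed among themselves. Neurod2 was 50.7% of the summed Neurod TPM in the 14-week rRNA-depleted library, 41.4% in the 14-week poly(A) library and 16.7% and 23.5% in the 20-week libraries, where Neurod1 was 41.3% and 42.1%. The mature pyramidal list summed to 4373 TPM in the 14-week rRNA-depleted library, 6390 TPM in the poly(A) library and 1715 and 1926 TPM in the 20-week libraries, while the granule neuron list gave 823 and 821 TPM at 14 weeks and 782 and 824 TPM at 20 weeks. Both 14-week libraries thus lay above the 20-week ones in Neurod2 share and pyramidal sum; with 1 library per method at 14 weeks, age, dissection and preparation cannot be told apart.

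**Figure D3:**
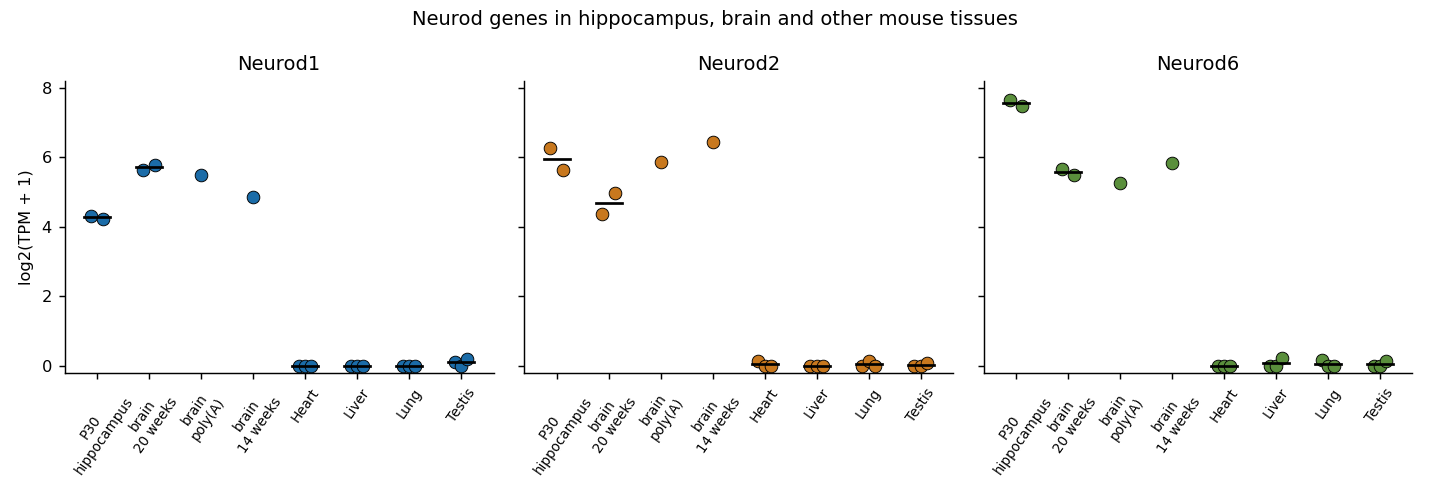
log2(TPM + 1) of each Neurod gene in P30 hippocampus, whole brain and 4 other mouse tissues, 1 point per library with the mean of groups that have several. Every brain and hippocampus library lies above 4 for each gene and every heart, liver, lung and testis library near 0; Neurod6 is highest in hippocampus and Neurod1 in 20-week brain.

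P30 hippocampus against whole brain compares the family's level in hippocampus with its level in the whole organ. The hippocampus was P30 and brain 14 or 20 weeks, so region and age cannot be told apart. Neurod6 was higher in hippocampus, at 199.0 and 176.3 TPM in P30 hippocampus and 50.2, 44.4 and 55.9 TPM in brain. The log2 difference was 1.89 ± 0.18 (SE from limma, n = 2 and 3), and both hippocampus libraries exceeded all 3 brain libraries. Neurod1 ran the other way, at 19.0 and 17.9 TPM in hippocampus and 49.2, 54.4 and 27.9 TPM in brain (-1.15 ± 0.32), again without overlap. Of 15576 genes, 0.238% had a higher difference than Neurod6 and 4.55% a lower one than Neurod1. The share of all genes without overlap was not counted. Neurod2 overlapped, at 76.3 and 49.3 TPM in hippocampus and 19.9, 30.4 and 86.4 TPM in brain (0.69 ± 0.62).

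With 1 library left out the difference ranged from 1.8 to 1.97 for Neurod6, from -1.44 to -0.97 for Neurod1 and from 0.25 to 1.28 for Neurod2. Without the 14-week brain library the differences were 1.97 for Neurod6, -1.44 for Neurod1 and 1.28 for Neurod2. The limma fit called 0.379% of 15576 genes higher and 1.57% lower, or 303 genes, and 6563 without the 14-week library, 7 and 4 without P30 replicate 1 and 2, and 16 and 19 without brain 20 weeks replicate 1 and 2. After scaling to equal medians 77 genes were higher and 143 lower, against 59 and 244 as deposited, with the median of all genes at -0.02 against -0.17.

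Among related genes in the same comparison, none of 8 bHLH relatives and none of 3 E proteins passed the limma test, with 2 of each at an unadjusted p under 0.05. Mature pyramidal genes were higher in 4 of 15, with a median of 1.04, and granule neuron genes lower in 7 of 12, with a median of -2.37. Gabra6 and Cbln3, both of cerebellar granule cells, averaged 0.0584 and 0.250 TPM in P30 hippocampus and 158 and 90.9 TPM in brain (log2 differences -7.23 ± 0.19 and -6.20 ± 0.19, both with adjusted p = 0.00048), and both calls remained in each refit without 1 library. The granule neuron list summed to 197 to 210 TPM in P30 hippocampus and 782 to 824 TPM in brain, and its part in the Neurod1 values was not tested. Leaving out any 1 P30 or 20-week brain library left 2 or 3 granule neuron genes lower and 0 or 1 mature pyramidal genes higher, and leaving out the 14-week library gave 9 lower and 3 higher granule neuron genes and 14 higher and 1 lower mature pyramidal genes.

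The share of each gene in the summed Neurod TPM was higher for Neurod6 in every hippocampus library than in the brain libraries. Neurod6 was 67.7% and 72.2% at E18, 67.7% and 76.1% at P1, 78.6% and 82.6% at P10, and 67.6% and 72.4% at P30. It was 87.6% in mouse CA1 somata and 81.1% in neuropil, and 47.1% in synaptosomes against 65.1% in homogenate. In brain it was 42.1% and 34.4% at 20 weeks and 32.8% at 14 weeks. Neurod1 was 13.6% and 11.5% of the sum at E18 and 6.45% and 7.35% at P30, and was 1.91% in CA1 neuropil and 1.01% in CA1 somata.

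**Figure D4:**
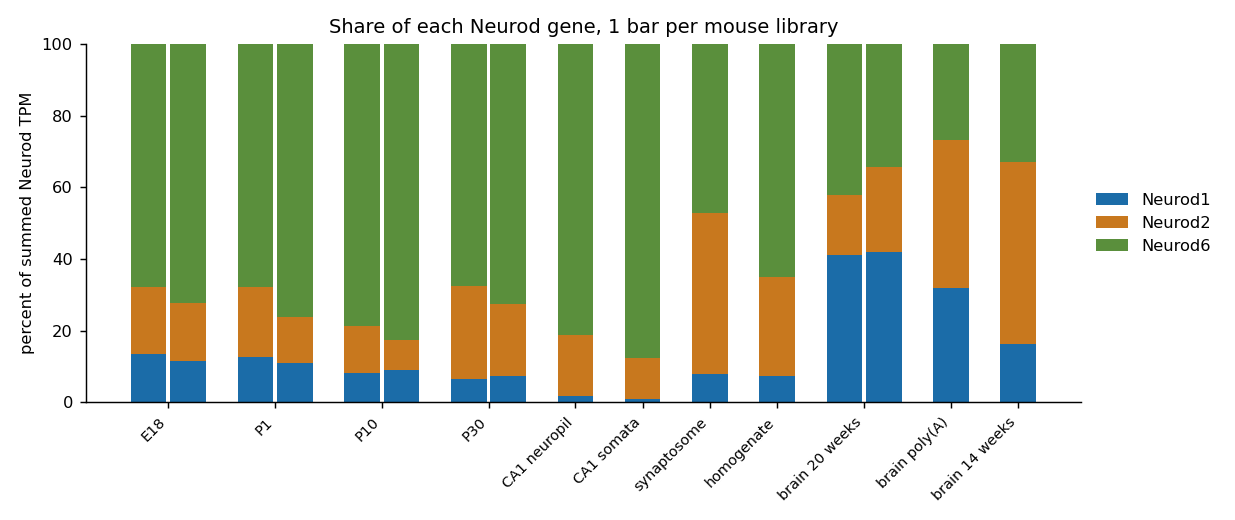
Percent of the summed TPM of the 3 genes taken by each gene, 1 stacked bar per mouse library. Neurod6 takes the largest share in each hippocampus and CA1 library (47.1% to 87.6%), and the 20-week brain libraries have the largest Neurod1 share (41.3% and 42.1%).

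The poly(A)-selected and the rRNA-depleted brain libraries of 14 weeks gave different orders. Neurod1 measured 44.3 TPM in the poly(A) library and 27.9 TPM in the rRNA-depleted library. Neurod2 measured 57.5 TPM in the poly(A) library and 86.4 TPM in the rRNA-depleted library, and Neurod6 37.1 TPM and 55.9 TPM. The log2 differences were 0.65, -0.58 and -0.58, against a median of -0.25 over 15595 genes, and none passed 2-fold. More than 2-fold higher in the poly(A) library were 9.07% of genes and more than 2-fold lower 15.9%; scaling to equal medians (median 0.04) turned that split to 2173 higher and 1374 lower, against 1415 and 2475 as deposited.

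Ordered by level over the mouse libraries, Neurod6 was highest in CA1 somata (451 TPM), E18 (445 ± 7.34, SD, n = 2) and P1 (431 ± 26.8), where the single CA1 value and the E18 mean lie within the spread of P1, and then in P10 (284 ± 11.6), CA1 neuropil (224), homogenate (212.5) and P30 (188 ± 16.1). Neurod1 was highest at E18 (80.4 ± 14.5 TPM) and P1 (71.2 ± 8.91), whose libraries overlap, followed by 20-week brain (51.8 ± 3.62, n = 2), 14-week poly(A) brain (44.3), P10 (30.2 ± 0.21), 14-week rRNA-depleted brain (27.9), homogenate (24.0), P30 (18.4 ± 0.77), synaptosomes (7.45) and CA1 (5.19 to 5.27). Neurod2 was highest at E18 (112 ± 17.7) and P1 (97.3 ± 30.1), but its P30 (62.8 ± 19.2) and P10 (38.6 ± 15.3) libraries overlapped with each other, and several single libraries fell between these values.

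Likeness of pattern was measured as Pearson's r of log2(TPM + 1), as a description with no p. Over the 8 hippocampus libraries, among 12526 genes, Neurod1 and Neurod6 had an r of 0.973, Neurod1 and Neurod2 0.698, and Neurod2 and Neurod6 0.593. The points share the 4 ages, so high r values are common. By r, Neurod6 ranked 222 and Neurod2 ranked 3550 among genes for Neurod1, and Neurod6 ranked 2829 for Neurod2. Among the 5 genes most like Neurod6 were 2410042D21Rik, Top2b, St8sia4 and Ptbp2 (r of 0.997 each). Those most like Neurod1 were Rpl34, Banf1, Rps6, Kcnrg and Alg13 (0.992 to 0.994), and those most like Neurod2 were E130309D02Rik, Tmem107, Scrib, Ptov1 and Zcchc3 (0.985 to 0.995). No gene was in more than 1 of these lists. Over the 27 rRNA-depleted mouse libraries, among 17226 genes and with the gap between brain and other tissues setting most of the r, Neurod2 and Neurod6 had 0.979, Neurod1 and Neurod2 0.935, and Neurod1 and Neurod6 0.919. There Bhlhe22 was among the 5 genes most like Neurod6 (0.988), Actl6b was among those of both Neurod6 (0.988) and Neurod2 (0.991), and Calb2, a calcium-binding protein, was among those of Neurod1 (0.979).

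No circular RNA was assigned to any of these genes. Of the 28482 mouse and 18075 rat circRNAs, 0 had Neurod1, Neurod2 or Neurod6 as host, while 5914 mouse genes (24.0%) and 4713 rat genes (21.0%) hosted at least 1. Among genes within 2-fold of each member's level in P30 hippocampus, 43.2% for Neurod1, 50.5% for Neurod2 and 46.4% for Neurod6 were hosts, and in rat control cultures 41.3% for Neurod1 and 38.7% for Neurod6 were. These sets were matched on level and not on exon number, and each mouse Neurod gene here has 2 exons. The part of exon number was not tested.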

How the data were processed

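The authors deposited TPM per gene for 28 mouse and 6 rat libraries, and RPM per circRNA with its host symbol, of which only the host column was used. Per the submitters' processing notes, CASAVA 1.8.2, TopHat2 2.0.6 and Cufflinks 2.2.1 were used with builds mm9 and rn5; strand and annotation are not given in the sources used here. TPM sums to the same total in each library, so depth is unknown and no counting interval is given. Promoters and gene positions are RefSeq GRCm38.p6, and exon counts are from GENCODE M21. Groups follow the labels. A long-read P30 sample is not analysed here.

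From the TPM, limma 3.58.1 in R 4.3.3 (two-sided, empirical Bayes with a trend, Benjamini-Hochberg over all genes tested, threshold 0.05) was fitted to log2(TPM + 1) of genes at 1 TPM or more in at least 2 libraries, or 3 for the tissues; a fit with only 2 brain libraries asked for 2. Fold changes on this scale understate the change of low genes. The fit was tested on simulated data. The cultures used their 4 libraries, the ages all 8, the tissues 15 without the poly(A) library, and hippocampus against brain 5. Pairs of single libraries had no test and a mark of 2-fold. P-values set each difference against the spread between libraries, and the labels do not say whether these were separate animals or cultures.

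The members and the 13 lists (138 genes, 137 in the mouse and 133 in the rat table) were chosen with earlier results of these data known. Named companions are, per list and comparison, up to 3 genes past the threshold with the largest difference and a mean of 5 TPM or more in the higher group, or the 2 with the highest mean where none passed; not every gene so chosen is printed, and Neurod4, Prox1 and the genes given for single-library pairs were named after their values were seen. Likeness used genes at 5 TPM or more in at least 2 libraries. Alternatives were the pseudocount, no filter, equal medians, each library left out, the replicate block, 2 ages alone, age as a term and 20-week libraries only.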

Additional observations from a re-analysis of the deposited data

Results flagged for a closer look

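Neurod1 differed in sign between the species in the CA1 layers: neuropil minus somata was 0.018 in mouse and -0.029 in rat on the log2(TPM + 1) scale. Each value rests on 1 library per layer, both are close to 0, and the difference between the species was not tested.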

How the results depend on the processing

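Every difference of a Neurod gene kept its sign under all alternatives, apart from those of P1 against E18 and Neurod1 in mouse CA1, which scaling to equal medians turned to -0.021. The numbers of genes called moved far more. Without the filter on low values they were 78 (bicuculline, 343 as reported), 17 (P1 against E18, 267) and 102 (P30 hippocampus against brain, 303). With 1 library left out they ran from 33 to 598 for bicuculline, 19 to 153 for P1 against E18, 2794 to 5178 for P10 against P1 (5437 as reported), 2219 to 5126 for P30 against P10 (4561) and 4 to 6563 for hippocampus against brain; where a group kept 1 library, that library was assumed to vary like the others. P1 and E18 fitted alone gave 41. A pseudocount of 0.1 TPM gave 2195 genes past 2-fold in mouse CA1 (1374 as reported) and 2157 in rat CA1 (1390), and one of 5 TPM gave 440, 436, 1631 for synaptosomes (2949) and 2327 for poly(A) (3890). Scgn, called higher in brain against other tissues on the log scale, came to -1.29e-05 at a pseudocount of 5 TPM (limma adjusted p = 1); the cause was not tested.

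The replicate block, which treats equal replicate numbers as pairs, gave 3298 genes for bicuculline (1493 higher and 1805 lower, 45.3% higher, against 275 and 68, 80.2% higher, as reported), 657 for P1 against E18 and, with the 20-week and P30 libraries only (chosen after seeing the data), 6324 for hippocampus against brain, where the differences were -1.44 for Neurod1, 1.28 for Neurod2 and 1.97 for Neurod6. With it, bicuculline called 2 of 10 bHLH relatives, 1 of 3 E proteins, 4 of 9 Id and Hes inhibitors, 8 of 14 glutamatergic factors, 6 of 11 GABAergic genes, 1 of 8 astrocyte and 2 of 8 oligodendrocyte genes, lists with no call in the reported fit. The deviations of equal-numbered libraries correlated at 0.597 in the cultures, 0.073 to 0.381 between ages and 0.026 to 0.141 between tissues. The labels do not say that a number marks a shared culture, animal or batch, and the cultures give only 2 pairs, so the numbers were not taken as pairs, although the culture libraries of equal number deviated together.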
